A study of Mus musculus with 2 samples.

Results

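RNase P and RNase MRP are the pair of related ribonucleoprotein enzymes described here, through the genes for their RNA components, Rpph1 and Rmrp, and for 8 of their protein subunits, Pop1, Pop4, Pop5, Pop7, Rpp14, Rpp30, Rpp38 and Rpp40. Genes were chosen by symbol, and every gene identifier that carries one of the symbols was kept apart. The 10 symbols gave 11 gene entries of 55536 genes in the deposited quantifications, because Rmrp is annotated both as a ribozyme and as a long non-coding RNA.

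The study sequenced total RNA, depleted of ribosomal RNA, of the nucleoplasm of mouse macrophages grown in culture from bone marrow (BMDM). The C57BL/6J cells had a first exposure to 100 ng/ml lipid A for 12 h, a washout of 12 h and a second exposure to 100 ng/ml lipid A for 90 min. Lipid A is the part of bacterial lipopolysaccharide that Toll-like receptor 4 senses. Both libraries, replicate 1 (from 1 µg of RNA) and replicate 2 (from 500 ng), belong to this 1 group. They are numbered as biological replicates but carry the same donor entry, so the spread between them may be technical. No untreated, singly stimulated or cytoplasmic library was analysed here, so the values below describe levels in 1 condition and carry no p-value. The labels call the fraction both nucleoplasmic and nuclear. Sex and age are recorded as not collected.

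RNase P cuts the leader off precursor tRNAs to make their mature 5′ ends, and its RNA component is the catalyst. RNase MRP works mainly in the nucleolus on precursor ribosomal RNA, and mutations in the human RMRP gene cause cartilage-hair hypoplasia, a skeletal and immune disorder. The enzymes share most of their protein subunits, and RNA polymerase III makes both RNAs from promoters that lie upstream of the start.

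Gene counts came to 29400104 in replicate 1 and 17789543 in replicate 2, so 3 counts, the floor used for a value of 0, correspond to 0.102 CPM in replicate 1 and 0.169 in replicate 2, that is, counts scaled to the library total. TPM, the other scale used, also corrects for length. All 10 macrophage markers (median 103 TPM) reached 1 TPM in both libraries. None of the T cell, B cell, neutrophil, dendritic cell or stromal markers did. The nuclear RNA Malat1 stood at 13291 TPM in replicate 1 and 24200 in replicate 2. Its scaled counts went slightly the other way, with a log2 ratio of replicate 1 over replicate 2 of 0.26. Small nucleolar RNAs differed between the libraries: 34 of 36 with enough counts had a positive log2 ratio of replicate 1 over replicate 2, with a median of 1.98, against a median of 0.05 over 11368 protein-coding genes. Small nuclear RNAs had a median of 0.58 over 32 genes.

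The sequences of the RNA components show which reads the entries can share. The mouse RNase MRP RNA is printed whole as the long non-coding entry, Rmrp-202, of 281 bases at chr4:43492783-43493063 on the minus strand of mm10, with T for U. The ribozyme entry, Rmrp-201, has 271 bases and lies wholly inside it, and capitals mark the 5 bases at each end that only the long non-coding entry holds.
Rmrp-202: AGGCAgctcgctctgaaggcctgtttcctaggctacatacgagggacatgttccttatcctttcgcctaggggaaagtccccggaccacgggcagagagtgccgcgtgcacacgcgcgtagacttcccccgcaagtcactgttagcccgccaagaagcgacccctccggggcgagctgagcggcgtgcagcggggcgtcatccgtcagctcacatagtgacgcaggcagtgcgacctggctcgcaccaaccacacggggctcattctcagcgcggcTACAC

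The first 300 of the 319 bases of the RNase P RNA, Rpph1-201, lie at chr14:50807468-50807767 on the minus strand of mm10. Capitals mark a stretch of 21 bases that stands in 2 tandem copies, from base 182 to base 223. That unit has no exact match in Rprl1, Rprl2 or Rprl3, the annotated RNase P RNA-like genes of the mouse genome.
Rpph1-201: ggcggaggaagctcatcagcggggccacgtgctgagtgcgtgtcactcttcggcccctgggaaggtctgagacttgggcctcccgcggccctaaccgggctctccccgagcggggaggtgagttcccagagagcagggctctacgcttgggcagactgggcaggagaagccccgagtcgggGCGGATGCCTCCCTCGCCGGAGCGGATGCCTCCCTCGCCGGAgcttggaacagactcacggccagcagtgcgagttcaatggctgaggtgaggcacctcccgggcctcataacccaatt

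The first 60 bases are set side by side to show how near those genes are to Rpph1. Capitals mark bases that differ from Rpph1, without gaps, at chr6:69327111-69327170 on the minus strand for Rprl1, at chr3:22251374-22251433 on the plus strand for Rprl2 and at chr8:3803299-3803358 on the minus strand for Rprl3.
Rpph1: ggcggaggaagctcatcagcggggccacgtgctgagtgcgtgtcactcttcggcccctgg
Rprl1: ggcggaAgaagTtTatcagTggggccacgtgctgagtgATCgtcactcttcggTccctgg
Rprl2: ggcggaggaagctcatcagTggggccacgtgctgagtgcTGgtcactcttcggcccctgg
Rprl3: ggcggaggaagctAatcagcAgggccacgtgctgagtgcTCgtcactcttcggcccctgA
Rprl1 differs at 8, Rprl2 at 3 and Rprl3 at 5 of the 60 positions. Over a full alignment with gaps, identity to Rpph1 is 70.1% for Rprl1, 76.2% for Rprl2 and 76.6% for Rprl3, and the longest exact run shared with Rpph1 is 27, 32 and 37 bases in that order.

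Both RNA genes start close to a protein-coding gene on the opposite strand. Rpph1 starts 74 bp from the GENCODE start of Parp2, the gene of a DNA damage-sensing polymerase. The RefSeq start of Parp2 (GRCm38.p6, the same coordinates as mm10) lies 149 bases from the start of Rpph1. RefSeq gives a 300-base window around that Parp2 start, which takes in the first 102 bases of Rpph1. The window is printed in the direction of Rpph1, on the minus strand of chr14:50807666-50807965, because it holds the stretch upstream of the RNA. Capitals mark the octamer ATGCAAAT and the letters TATAA on either strand.
Parp2 window: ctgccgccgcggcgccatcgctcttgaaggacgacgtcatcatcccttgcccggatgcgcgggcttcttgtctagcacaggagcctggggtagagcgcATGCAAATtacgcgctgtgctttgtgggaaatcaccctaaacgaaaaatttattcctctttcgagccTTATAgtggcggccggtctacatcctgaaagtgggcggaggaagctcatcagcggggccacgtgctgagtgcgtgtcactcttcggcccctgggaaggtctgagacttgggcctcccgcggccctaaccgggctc
The octamer covers the bases 100 to 93 before the first base of Rpph1, and the TATAA match, on the opposite strand, covers the bases 33 to 29 before it.

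For Rmrp the neighbour is Ccdc107, a gene for a coiled-coil protein. Its RefSeq window covers the stretch from 356 to 57 bases before the first base of the Rmrp ribozyme entry and is printed in the direction of Rmrp, on the minus strand of chr4:43493115-43493414, with the same letters in capitals.
Ccdc107 window: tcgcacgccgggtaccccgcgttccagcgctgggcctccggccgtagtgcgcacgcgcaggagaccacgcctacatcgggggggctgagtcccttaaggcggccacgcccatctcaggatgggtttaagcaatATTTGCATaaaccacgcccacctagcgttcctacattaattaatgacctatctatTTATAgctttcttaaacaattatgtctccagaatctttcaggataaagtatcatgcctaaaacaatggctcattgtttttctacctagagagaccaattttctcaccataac
Here the octamer lies on the opposite strand, 223 to 216 bases before the start. The TATAA match, also on the opposite strand, lies 168 to 164 bases before it. The stretch between this window and the start of Rmrp was not searched. It includes the distance at which Rpph1 has its TATAA match. Of all 32851 RefSeq windows of 300 bases, 1.74% hold the octamer and 24.9% hold TATAA on either strand. A match describes the letters only.

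**Figure D1:**
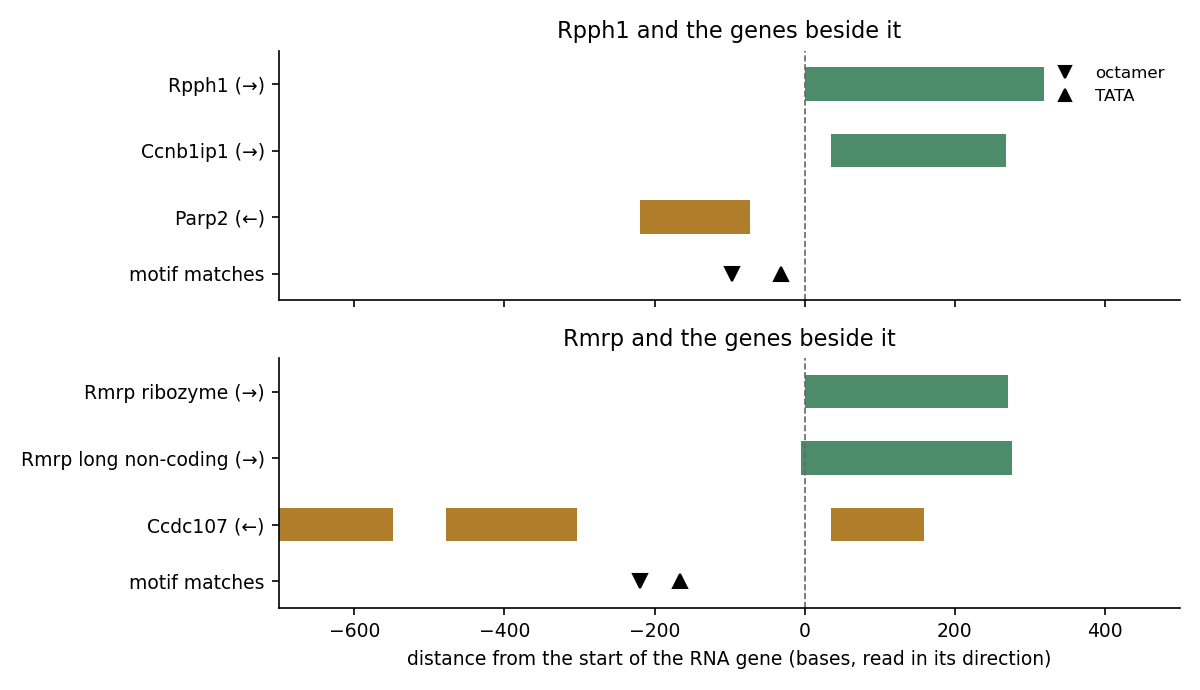
Exons of the genes around Rpph1 (top) and Rmrp (bottom), by distance in bases from the start of the RNA gene (dashed line), with arrows for the direction of transcription. Triangles mark matches to the octamer (pointing down) and to TATA (pointing up). Parp2 lies upstream of Rpph1 on the other strand, Ccnb1ip1 shares 233 exonic bases with Rpph1, and 1 exon of Ccdc107 shares 124 bases with Rmrp.

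Rpph1, the RNA component of RNase P (ENSMUSG00000092837.1, chr14:50807449-50807767), was the second most abundant gene by TPM in the RSEM quantification, after Rn7sk. Its level was 84535 TPM in replicate 1 and 76771 in replicate 2 (80654 ± 5490, mean ± SD, n = 2). The libraries were close in TPM. The counts behind these levels were 433100 in replicate 1 and 205753 in replicate 2. Scaled by the trimmed mean of M-values (TMM), its log2 ratio between replicate 1 and replicate 2 came to 0.52, with a 95% interval of 0.51 to 0.52. That interval covers counting error only, here and below.

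Rmrp, the RNA component of RNase MRP, was also among the most abundant genes by TPM but differed more between the libraries. The ribozyme entry (ENSMUSG00000088088.1, chr4:43492788-43493058) was next in mean TPM, with 77015 TPM in replicate 1 and 48546 in replicate 2. The long non-coding entry (ENSMUSG00000115420.1) was number 9 in mean TPM, with 21050 TPM in replicate 1 and 3011 in replicate 2. Both entries were higher in replicate 1. Log2 ratios of replicate 1 over replicate 2 were 1.09 (1.08 to 1.10) for the ribozyme entry and 3.22 (3.18 to 3.26) for the long non-coding entry.

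The entries share 271 bases and differ only in the 5 extra bases at either end. The long non-coding entry took 23.5% of all Rmrp counts in replicate 1 and 6.55% in replicate 2 by RSEM, and 26.4% in replicate 1 and 6.02% in replicate 2 by kallisto. The share was higher in replicate 1 by both quantifications. RSEM's own posterior standard deviation of the count was 530 in replicate 1 and 167 in replicate 2 for each entry, small beside the 74818 and 5473 counts of the long non-coding entry. For Rpph1, whose same-strand overlap with an exon of Ccnb1ip1 is described below, it was 0.37 in replicate 1 and 0.29 in replicate 2.

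Summed over both entries, Rmrp had 319033 counts in replicate 1 and 83542 counts in replicate 2, which is 98065 TPM in replicate 1 and 51556 in replicate 2 (mean 74811 ± 32887, SD, n = 2). Replicate 1 was the higher library, with a summed log2 ratio of 1.38 (1.36 to 1.39). With kallisto counts the ratio was 1.48. The small nucleolar RNAs, most of which also work in the nucleolus, had ratios of the same sign (median 1.98). Their part in the Rmrp result, and that of RNA input and depth, was not tested.

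**Figure D2:**
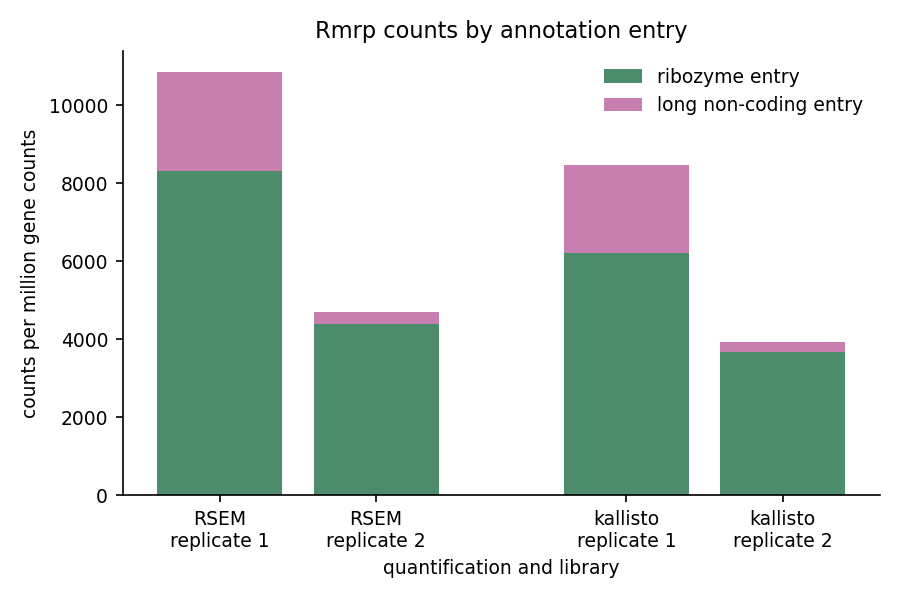
CPM of Rmrp, by quantification and library, stacked by annotation entry. The long non-coding entry takes 23.5% of the bar in replicate 1 and 6.55% in replicate 2 by RSEM, and the whole bar is taller in replicate 1 by both quantifications.

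Which of the RNAs was more abundant depended on the library and on the scale. By RSEM TPM, the ratio of Rpph1 over summed Rmrp was 0.862 in replicate 1 and 1.49 in replicate 2. By counts, which are not corrected for length, it was 1.36 in replicate 1 and 2.46 in replicate 2. Rpph1 therefore led by counts in both libraries and by TPM in replicate 2. Together the RNAs made up 18.3% of all TPM in replicate 1 and 12.8% in replicate 2, but 2.56% of gene counts in replicate 1 and 1.63% in replicate 2.

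TPM divides counts by the effective length, the number of start positions that a fragment can take. RSEM used an effective length of 105 bases in replicate 1 and 103 bases in replicate 2 for the 319 bases of Rpph1. It used 64.9 bases in replicate 1 and 62.0 bases in replicate 2 for the Rmrp ribozyme entry. Both annotated lengths, 319 bases for Rpph1 and 271 for the Rmrp ribozyme entry, lie inside the labelled fragment size range of 250 to 400. By kallisto, Rpph1 stood at 30031 TPM in replicate 1 and 27851 in replicate 2, and both RNAs made up 6.05% of TPM in replicate 1 and 4.54% in replicate 2. Kallisto used an effective length of 107 bases in replicate 1 and 142 bases in replicate 2 for Rpph1. For the Rmrp ribozyme entry it used 75.9 bases in replicate 1 and 103 bases in replicate 2. In replicate 1 the tools were thus close in effective length for Rpph1, and in counts (433100 by RSEM, 452618 by kallisto), but not in TPM. What makes the tools differ in TPM was not tested. TPM of these RNAs is given as a position on the scale of 1 tool, not as a number of molecules.

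Genes that overlap or adjoin the RNA genes had few counts. Ccnb1ip1, which shares 233 exonic bases with Rpph1 on the same strand, was listed at 0 counts in both libraries by RSEM and at 40.0 in replicate 1 and 15.5 in replicate 2 by kallisto. Parp2, which does not overlap Rpph1, had 379 counts in replicate 1 and 203 counts in replicate 2, which is 5.92 TPM in replicate 1 and 7.46 in replicate 2. Ccdc107, which shares 124 exonic bases with Rmrp on the opposite strand, had 63 counts in replicate 1 and 22 in replicate 2, which is 2.15 TPM in replicate 1 and 1.54 in replicate 2. The sources used here do not say whether counting used the strand, so the exact values of Ccdc107 and Rmrp in the shared bases are uncertain.

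The RNase P RNA-like genes were not seen by RSEM at this depth. All 4 gene entries of Rprl1, Rprl2 and Rprl3 had 0 counts in both libraries by RSEM. By kallisto, Rprl2 had 0 counts in replicate 1 and 39.0 in replicate 2, and Rprl3 had 2 counts in replicate 1 and 17 in replicate 2. The Rprl1 long non-coding entry had 0 in replicate 1 and 15 in replicate 2. Rpph1 itself had 452618 kallisto counts in replicate 1 and 273936 in replicate 2, far above any of these copies.

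The protein subunits stood at ordinary to low levels in the same libraries. Over the 8 genes the median of mean TPM was 1.80, against 2.41 over the 14397 protein-coding genes listed above 0. At least 1 TPM in both libraries was reached by 5 of 8, against 38.6% of all 22028 protein-coding genes. All 11 member entries had a mean count of at least 10, the minimum for a replicate ratio. Summed over the subunits there were 707 counts in replicate 1 and 439 counts in replicate 2, so single subunits are measured far less precisely than the RNAs.

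**Figure D3:**
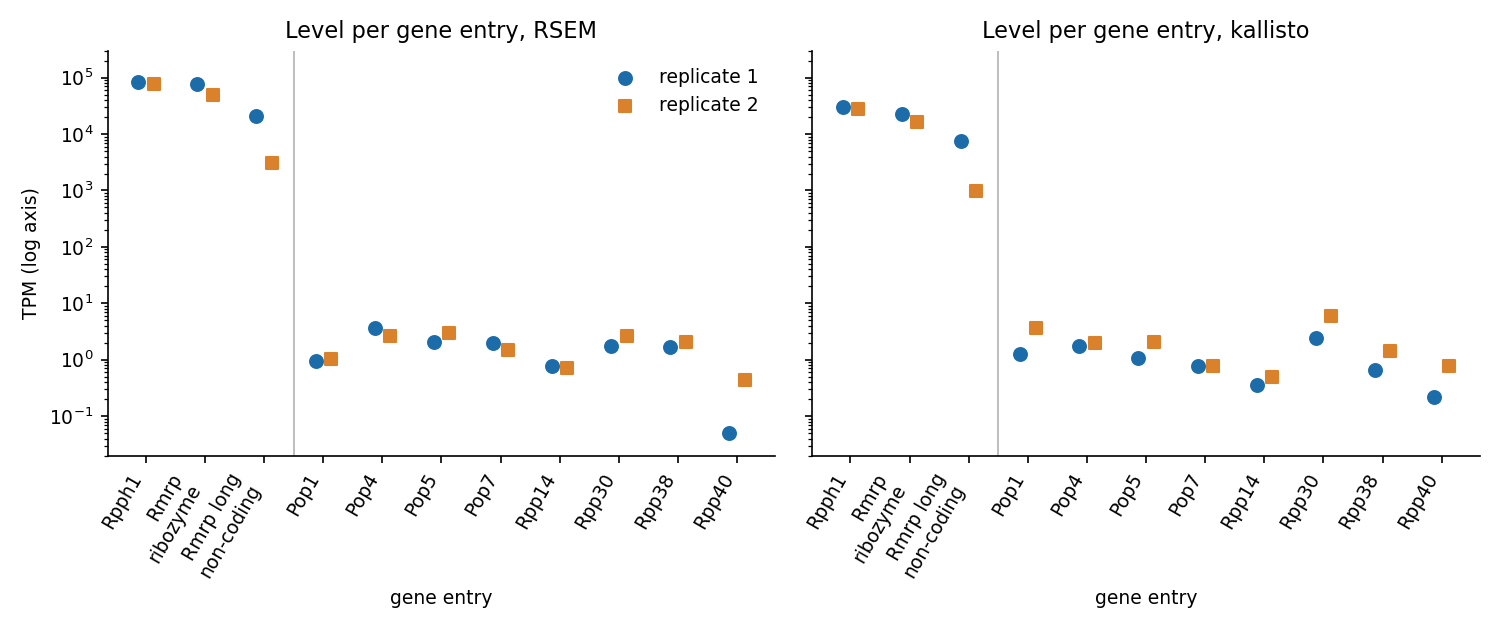
Level of each member entry in TPM on a log axis, by RSEM (left) and kallisto (right), with 1 point per library. The 3 RNA entries to the left of the grey line lie between 3011 and 84535 TPM by RSEM, and the 8 protein subunits lie between 0.05 and 3.67 TPM.

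Pop4, an RNA-binding subunit conserved from archaea to human, was the most abundant by RSEM, at 3.67 TPM in replicate 1 and 2.63 in replicate 2 (mean 3.15 ± 0.74, SD, n = 2). Pop5, another subunit conserved from archaea, followed at 2.09 TPM in replicate 1 and 3.0 in replicate 2. The ranges of Pop4 and Pop5 over the libraries overlap, so their order is not resolved. Rpp30, which pairs with Pop5 in the human enzyme and is an autoantigen in human connective tissue disease, had 1.75 TPM in replicate 1 and 2.62 in replicate 2. Rpp38, a subunit that binds kink-turns in RNA, had 1.65 TPM in replicate 1 and 2.07 in replicate 2. Neighbours in this order, Pop5, Rpp30 and Rpp38, overlap in range.

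Pop7, which pairs with Rpp25 in the human enzyme, had 1.99 TPM in replicate 1 and 1.5 in replicate 2, a range that overlaps that of Rpp38. Pop1, the largest protein subunit, which holds the RNA in shape, had 0.93 TPM in replicate 1 and 1.04 in replicate 2. Rpp14, a partner of Pop5 in the human enzyme, had 0.78 TPM in replicate 1 and 0.71 in replicate 2. By RSEM the ranges of Pop7, Pop1 and Rpp14 do not overlap each other. Rpp40, a subunit of the same arm of the human enzyme, had the lowest level by RSEM: 0.05 TPM in replicate 1 and 0.43 in replicate 2, from 8 counts in replicate 1 and 19 counts in replicate 2. Among protein-coding genes above 0 TPM by RSEM, the subunits ran from percentile 24.0 for Rpp40 to percentile 54.7 for Pop4.

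The order among the subunits was not the same by kallisto. Pop1 had 1.29 TPM in replicate 1 and 3.6 in replicate 2 by kallisto, a mean of 2.45 against 0.985 by RSEM, and stood above Pop7, which had 0.786 TPM in replicate 1 and 0.782 in replicate 2. Rpp14 had the lowest kallisto mean, 0.430 TPM, with Rpp40 at 0.491 TPM. Rpp40 was the lower of these in replicate 1 and Rpp14 in replicate 2. RSEM's posterior mean put Rpp40 at 0.705 TPM, against 0.24 TPM in its TPM column. The place of Pop1, Pop7, Rpp14 and Rpp40 in the order is therefore not settled by these files.

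On the TPM scale the RNA components lay far above the messenger RNAs of the subunits. By RSEM, Rpph1 was 23034 times the highest subunit in replicate 1 and 25591 times in replicate 2, and summed Rmrp 26721 times in replicate 1 and 17186 times in replicate 2. The ratios were smaller by kallisto, at 12603 times in replicate 1 and 4764 times in replicate 2 for Rpph1, and 12789 times in replicate 1 and 3003 times in replicate 2 for summed Rmrp. The RNAs were far above every one of the 8 subunits by both tools, but the size of the gap depended on the tool. A nuclear messenger RNA level says nothing about the amount of protein, and the messenger RNAs of the cytoplasm were not analysed here.

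Between the libraries, 2 of the 11 member entries were past 2-fold higher in replicate 1, both of Rmrp, against 5.85% of the 14831 genes tested. Past 2-fold higher in replicate 2 was 1 of 11, Rpp40, against 7.52% of genes. Among the subunits, Pop4 had a log2 ratio of 0.89 (0.49 to 1.32) and Pop7 of 0.71 (0.07 to 1.39), with intervals above 0. Rpp40 had -1.73 (-3.21 to -0.55). The intervals of Pop1, Pop5, Rpp14, Rpp30 and Rpp38 include 0, and their ratios lay between -0.40 for Rpp30 and 0.32 for Pop1. The subunits split much as protein-coding genes did, with 4 of 8 above 0 and 4 of 8 below, against 6134 of 11368 above 0. All 3 RNA entries, which belong to 2 RNAs, were above 0. Rpp38, at 0.03, turned to -0.14 with library totals, -0.03 with TMM from protein-coding genes, -0.08 by kallisto and -0.31 from deposited TPM. The RNA entries stayed above 0 in each scaling tried.

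**Figure D4:**
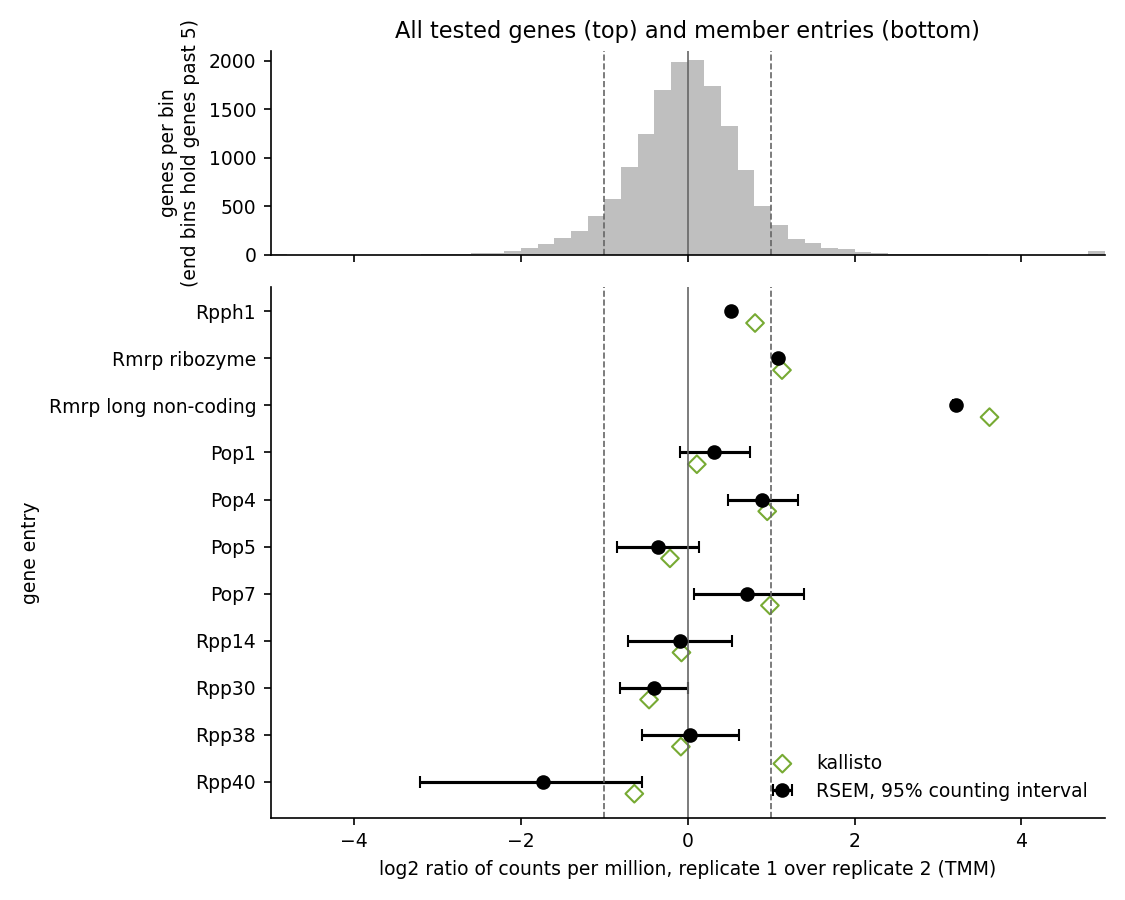
Log2 ratio of replicate 1 over replicate 2 after TMM scaling, for all 14831 tested genes as a histogram (top) and for each member entry (bottom), with 95% counting intervals for RSEM and open diamonds for kallisto. Dashed lines mark 2-fold. Both Rmrp entries lie to the right of the upper line and Rpp40 lies to the left of the lower line by RSEM but not by kallisto.

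In counts, the quantifications disagreed most on Rpp30 and Rpp40 among the member entries. By kallisto, Rpp30 had 408 counts in replicate 1 and 596 in replicate 2, against 108 in replicate 1 and 97 in replicate 2 by RSEM. For Rpp40, kallisto gave 101 counts in replicate 1 and 167 in replicate 2, against 8 in replicate 1 and 19 in replicate 2 by RSEM. In CPM, kallisto was 2.84 times RSEM in replicate 1 and 3.42 times in replicate 2 for Rpp30. For Rpp40 it was 9.48 times RSEM in replicate 1 and 4.89 times in replicate 2. These were 2 of 11 member entries with a mean CPM past 2-fold above RSEM, against 14.4% of 14742 genes. By kallisto TPM, Rpp30 was the most abundant subunit, at 2.38 TPM in replicate 1 and 5.85 in replicate 2.

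The extra counts sat on isoforms that keep an intron. For Rpp30-205, annotated as a retained-intron transcript, kallisto gave 314 counts in replicate 1 and 500 in replicate 2, against 38 in replicate 1 and 44 in replicate 2 by RSEM. For Rpp40-204, also a retained-intron transcript, kallisto gave 75.6 counts in replicate 1 and 132 in replicate 2, against 6.89 in replicate 1 and 10.4 in replicate 2 by RSEM. These transcripts hold most of the difference in both genes. What makes the tools differ there was not tested.

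Retained-intron isoforms held much of the TPM of several subunits in this nuclear RNA. Of the 5 subunit genes with both a coding and a retained-intron isoform, Rpp30 and Rpp40 had a mean retained-intron share above 50% of TPM by RSEM, so 2 of 5, against 20.6% of 6821 genes. Rpp30 had 56.0% in replicate 1 and 84.0% in replicate 2 by RSEM, and 73.4% in replicate 1 and 84.2% in replicate 2 by kallisto. The median share over those 6821 genes was 29.6%. By kallisto 4 of 5, all but Pop5, had a mean share above 50%, against 28.9% of the same genes, whose median was 33.6% in replicate 1 and 37.3% in replicate 2. Rpp40 had 83.3% in replicate 1 and 30.2% in replicate 2 by RSEM, from the few counts given above, and 80.3% in replicate 1 and 81.4% in replicate 2 by kallisto. The libraries are close for Rpp40 by kallisto and far apart by RSEM.

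Pop4 had a retained-intron share of 43.7% in replicate 1 and 55.1% in replicate 2 by RSEM, and 53.2% in replicate 1 and 61.8% in replicate 2 by kallisto. Most Pop4 counts lay on the coding isoform Pop4-201, 134 of 186 in replicate 1 and 44.6 of 68 in replicate 2 by RSEM. That isoform held 150 of 229 in replicate 1 and 71.5 of 125 in replicate 2 by kallisto. It has 2113 bases, and the retained-intron isoforms of Pop4 have 724 and 816. Pop1 had 3.26% in replicate 1 and 12.5% in replicate 2 by RSEM, but 57.0% in replicate 1 and 54.8% in replicate 2 by kallisto. The Pop1 share thus depended on the tool. By counts the coding isoforms of Pop1 held most reads in kallisto too, 182 of 216 in replicate 1 and 156 of 212 in replicate 2. The coding isoforms have 3395 and 3275 bases, and the retained-intron isoforms 392 to 794 bases.

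Pop5 differed from the other subunits in its main isoform. Its transcript annotated for nonsense-mediated decay, Pop5-203, took 46.4% of Pop5 TPM in replicate 1 and 53.8% in replicate 2 by RSEM, and 44.6% in replicate 1 and 54.3% in replicate 2 by kallisto. The coding isoform Pop5-201 took 1.44% in replicate 1 and 2.01% in replicate 2 by RSEM, and 6.83% in replicate 1 and 9.52% in replicate 2 by kallisto. The retained-intron isoform of Pop5 took 12.9% in replicate 1 and 8.36% in replicate 2 by RSEM. The decay transcript was ahead of the coding one in both libraries by both tools. Pop7, Rpp14 and Rpp38 have only coding isoforms in the annotation.

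**Figure D5:**
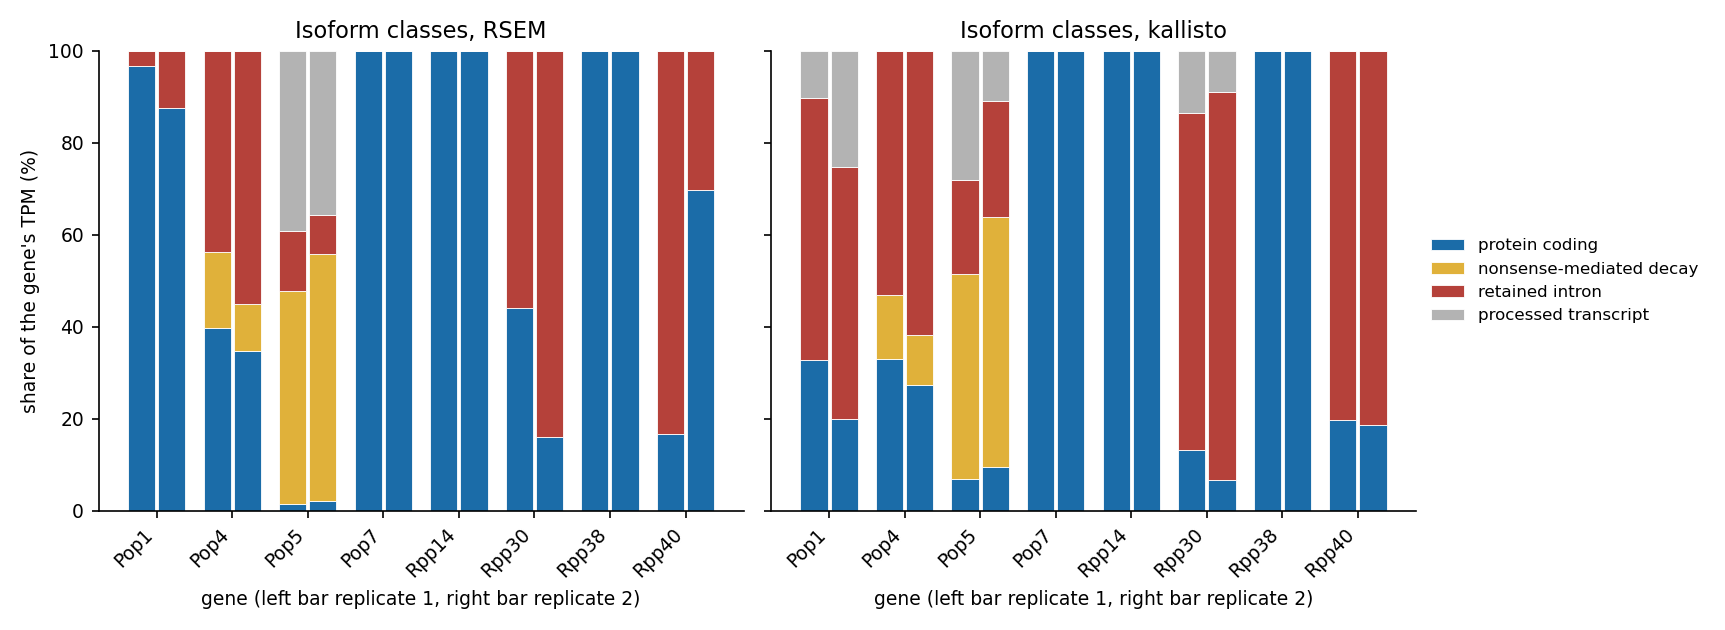
Share of each subunit gene's TPM, in percent, by isoform class in the annotation, for RSEM (left) and kallisto (right), with replicate 1 as the left bar and replicate 2 as the right bar of each gene. Retained-intron isoforms fill over 70% of the Rpp30 bars by kallisto, and the decay class leads for Pop5 in both panels.

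The positions of the subunit genes bear on how their reads can be assigned. No other annotated gene overlaps Rpp14 (chr14:8080367-8091834), Rpp30 or Rpp38, or starts within 500 bp of the start of any of them. Pop7 (chr5:137501438-137502518) lies within the span of Epo, the erythropoietin gene, which had 0 counts in both libraries. Rpp40 (chr13:35893472-35906359) shares 80 exonic bases with Gm48746 on the other strand, which had 0 counts in replicate 1 and 3 counts in replicate 2. Pop4 (chr7:38261996-38271423) shares 12 bases with Gm44767, which had 0 counts in both libraries. Pop5 (chr5:115235836-115245351) shares 3940 bases with the span of Rnf10 on the other strand but no exonic base. Rnf10 had 1807 counts in replicate 1 and 984 in replicate 2, many times the 78 and 68 of Pop5.

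Of the subunits outside the 8, Rpp21, which belongs to RNase P, had 6.18 TPM in replicate 1 and 3.80 in replicate 2, by RSEM, more than any of the 8. By kallisto it had 4.28 TPM in replicate 1 and 4.69 in replicate 2, and in replicate 2 Rpp30 was higher. Rpp25l, a paralogue of Rpp25, had 0.84 TPM in replicate 1 and 0.55 in replicate 2. Rpp25 itself had 0 counts in both libraries.

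Among 6 genes of other tRNA end processing, 5 reached 1 TPM in both libraries. Ssb, the La protein that binds the 3′ ends of new polymerase III transcripts, was highest with a mean of 17.4 TPM. Lowest was 1110008L16Rik, the RefSeq gene Prorp of the protein-only mitochondrial RNase P, with a mean of 0.82 TPM. None of the 6 was past 2-fold between the libraries. Among 7 tRNA splicing genes, 5 reached 1 TPM in both libraries, and 2 of 7 were past 2-fold, higher in replicate 2. The ligase Rtcb was highest of the 7 with a mean of 8.77 TPM.

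Of 22 polymerase III subunits and factors of such upstream promoters, 19 reached 1 TPM in both libraries. Snapc3, a subunit of the complex that binds these promoters, was highest with a mean of 15.8 TPM, and Polr3g, a polymerase subunit, was lowest at 0.285 TPM. Their median log2 ratio was -0.29, with 9 of 22 above 0, and 1 of 22, Polr3k, was past 2-fold, higher in replicate 2. Of 15 rRNA processing genes, 14 reached 1 TPM in both, from Npm1, the nucleolar nucleophosmin, at 19.9 TPM to Wdr12 at 0.83 TPM. Their median log2 ratio was -0.04, and 1 of 15, Wdr12, was past 2-fold, higher in replicate 2.

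Other polymerase III RNAs differed in whether they were seen. Rn7sk, which keeps P-TEFb, a kinase of transcription elongation, in an inactive complex, had 331747 TPM in replicate 1 and 314957 in replicate 2. It had a log2 ratio of 0.45, close to the 0.52 of Rpph1. Rny1, Rny3 and Rnu6 had 0 counts in both libraries by RSEM, and the vault RNA Vaultrc5 had 2 counts in replicate 1 and 0 in replicate 2. By kallisto Rny3 had 19 counts in each library. These entries are at or near the floor, so no ratio is given for them. Whether RNAs of their length fall inside the labelled fragment size range of 250 to 400 was not tested. Their low counts therefore do not show that the RNAs were absent from the cells.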

How the data were processed

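The authors deposited RSEM gene and transcript tables with expected counts, TPM and isoform percent, and kallisto transcript tables with estimated counts and TPM, for mm10 with GENCODE M21 identifiers, per the file headers and labels. The sources used here give no aligner, tool version or strand setting. Rows of spike-ins, of the PhiX control and of numbered tRNAs name no gene and were left out. They held 0.766% of counts in replicate 1 and 0.272% in replicate 2, nearly all on PhiX. The ERCC spike-in rows held 0 counts in both libraries. The numbered tRNA rows held 16 counts in replicate 1 and 22 in replicate 2. Expected counts were rounded for TMM factors (0.944 and 1.06) in edgeR 4.0.16 on genes whose mean count reached 10, with DESeq2 1.42.0 size factors as an alternative. R 4.3.3, Python 3.11.15, pandas 2.3.3, scipy 1.17.1 and matplotlib 3.10.9 were used. Log2 ratios have a prior count of 0.5 and exact (Clopper-Pearson) 95% binomial intervals for counting error only, and the ratio computation was tested on simulated data. A gene was called past 2-fold by size alone. Kallisto counts were summed per gene. Sequences came from GENCODE M21 transcripts and RefSeq windows. Named genes are all member entries plus the highest and lowest of each related list, except 1 that is not reported here. Members and lists were chosen with earlier results of these data known. The files held 0 columns of other samples.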

Additional observations from a re-analysis of the deposited data

How the results depend on the processing

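No paired analysis was possible because both libraries belong to 1 group. The level of Rpph1 ranged from 76771 to 84535 TPM when either replicate was left out, and that of summed Rmrp from 51556 to 98065 TPM. Rpph1 stood at 28941 TPM with kallisto, at 283569 TPM rescaled over protein-coding and long non-coding genes, and at 41218 CPM per kilobase of annotated length, and summed Rmrp at 24014, 273860 and 28498 in that order. The log2 ratio of Rpph1 was 0.35 with library totals, 0.53 with DESeq2 size factors, 0.46 with TMM from protein-coding genes, 0.81 with kallisto counts and 0.14 from deposited TPM, and that of summed Rmrp was 1.21, 1.39, 1.32, 1.48 and 0.93 in that order. Genes past 2-fold higher in replicate 1 numbered 868 and became 1418 with kallisto, 351 from TPM and 4028 with no filter on low counts. Genes higher in replicate 2 numbered 1116 and became 2598, 1980 and 3173. Member entries higher in replicate 1 fell from 2 to 1 with library totals and from TPM, as the Rmrp ribozyme entry had 0.92 and 0.67, and those higher in replicate 2 numbered 0 with kallisto, as Rpp40 had -0.64. Of all calls past 2-fold, 43.8% were higher in replicate 1 with TMM, 27.5% with library totals and 15.1% from TPM, where the median of all genes lay at -0.18 and -0.34. From TPM, Pop1 had -0.15, Rpp14 0.12 and Rpp38 -0.31, opposite in sign to their main ratios. No called value changed sign. The cause was not tested. The subunits rest on 8 to 186 counts a library, which limits all their ratios and isoform shares.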
